A study of Mus musculus with 6 samples.

Results

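The 37 genes described here encode the machinery that copies DNA in S phase of the cell cycle. All 37 were found by symbol among the 23867 genes of the count table. They were read by bulk RNA sequencing of mouse chondrocytes, the cells of cartilage, in 3 libraries with the genotype MFN2wt and 3 with the genotype MFN2Col2a1-/-. No treatment is named for either group. The second genotype sets Mfn2, the gene of the mitochondrial fusion protein mitofusin 2, beside Col2a1, a cartilage collagen gene whose promoter is often used to drive Cre recombinase in cartilage cells. Its columns are named CRE1, CRE2 and CRE3 and are called the knockout libraries. The allele, the Cre line, age, joint, culture and any pooling of animals were not given in the sources used here. P-values therefore measure only the spread between these libraries, which may be technical. Levels are CPM, read counts set to a common library size after TMM scaling, which equalizes libraries on the bulk of their genes, and values after ± are SDs over n = 3 libraries. Mfn2 itself stood at 64.0, 56.5 and 59.4 CPM in CRE1 to CRE3 against 108, 108 and 106 CPM in WT1 to WT3 (log2 fold change −0.84, SE 0.0451, adjusted p = 1.61e-13, edgeR), so 55.9% of its wild-type level was left.

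Before a cell copies its DNA, origins are licensed: the origin recognition complex, CDC6 and CDT1 load the MCM helicase ring, made of the products of Mcm2 to Mcm7. CDC45, the GINS complex and MCM10 then turn the ring into an active fork. Primase and the polymerases copy the strands with the sliding clamp PCNA, and ribonucleotide reductase and thymidylate enzymes supply the nucleotides. E2F transcription factors, held back by the retinoblastoma family, are known to switch on many of these genes as a cell enters S phase. Adult articular chondrocytes divide little, while cartilage cells of young animals and of early cultures do divide.

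Replication genes were lower in the knockout libraries at nearly every step, but by very different amounts, and 1 primase subunit was higher. Of the 37 members, 31 were called lower, 1 was called higher and 5 were not called by edgeR's quasi-likelihood test, with Benjamini-Hochberg adjustment over all tested genes and a threshold of 0.05. Among all 15028 tested genes 62.7% were called, 32.1% lower and 30.6% higher. The median log2 fold change, knockout against wild type, was −0.83 over the members and −0.02 over all tested genes. A fall of 2-fold or more was called for 16 members, against 12.0% of tested genes, and a rise of that size for none, against 7.70%. In 34 members every knockout library lay below every wild-type library, against 34.8% of tested genes. In Prim2 every knockout library lay above, against 32.3%.

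Summed over the 37 members, the level was 480, 485 and 474 CPM in CRE1 to CRE3 against 885, 880 and 881 CPM in WT1 to WT3, or 54.4% of the wild type. The libraries of a group thus differed little in this sum. CRE1 was the highest knockout library for 17 members and the lowest for 11, so no library was high or low throughout. A member's coefficient of variation over its group had a median of 8.69% for the knockout libraries and 5.02% for the wild-type libraries.

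**Figure D1:**
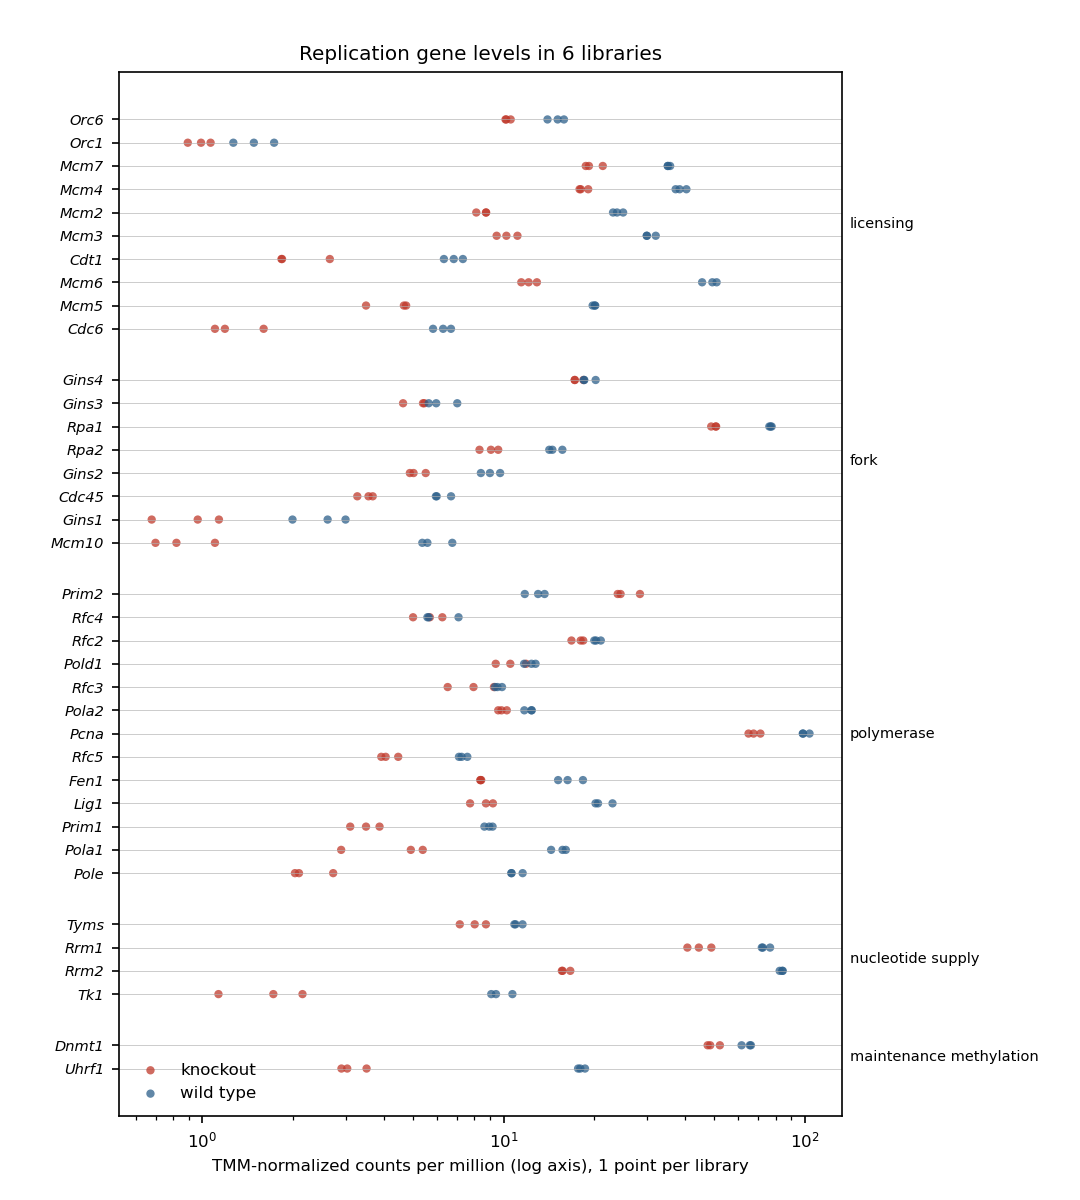
Level of each replication gene in each of the 6 libraries, in TMM-scaled CPM on a log axis, with 1 point per library (red: knockout, blue: wild type) and the genes grouped by role. The groups lie apart for 35 of the 37 genes, with the knockout on the low side except for Prim2, and overlap for Pold1 and Rfc4.

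Total counts ran from 31481779 to 37814723 per knockout library and from 39267487 to 40152687 per wild-type library. Chondrocyte markers were present in both groups and lower in the knockout: the 12 listed summed to 3000 to 3130 against 8530 to 8730 CPM, and all 12 were called lower, with Col2a1 at 509 ± 29.04 against 3397 ± 71.3 CPM and Comp at 1233 ± 39.1 against 1609 ± 9.43 CPM. All 16 macrophage markers were called lower too, with a summed level of 331 to 342 against 2970 to 3010 CPM. None of them was at 0 in every library, and Lyz2 stood at 229 ± 9.25 against 1748 ± 24.9 CPM and Mrc1 at 8.38 ± 0.457 against 218 ± 6.28 CPM. Of 11 fibroblast markers tested, 4 were called lower and 5 higher (summed 29400 to 30400 against 22800 to 23000 CPM), with Col3a1 at 9778 ± 327 against 5939 ± 62.2 CPM and Col1a2 at 4868 ± 159 against 7606 ± 43.3 CPM. Of 6 endothelial markers tested, 2 were called lower and 2 higher. The 8 listed summed to 13.6 to 14.8 against 9.4 to 11.9 CPM, with Plvap at 9.15 ± 0.153 against 2.98 ± 1.12 CPM and Tek at 3.08 ± 0.945 against 3.38 ± 0.281 CPM. Kdr (−2.50, SE 0.555, adjusted p = 0.000453) and Vwf (−2.06, SE 0.273, adjusted p = 7.46e-07), singled out after their values were seen, were the 2 called lower, against the direction of the sum. Reads were few, at 1 to 6 against 22 to 37 for Kdr and 18 to 24 against 90 to 146 for Vwf. Pecam1, called higher beside Plvap, had 10 to 30 reads against 1 to 11 (1.78, SE 0.576, adjusted p = 0.0106). The sizes of these changes are therefore imprecise. Erythroid markers summed to 0.989 to 2.23 against 0.64 to 1.13 CPM, led by Hbb-bs and Hba-a1, with neither of 2 tested called. Lymphocyte and neutrophil markers summed to 5.89 to 6.6 against 0.44 to 1.03 CPM, with 2 of 3 tested called higher. Nearly all of the knockout sum came from these 2, Camp (3.48 against 0.179 CPM) and S100a8 (2.51 against 0.218 CPM). S100a9, the other gene tested, lay in the opposite direction and was not called (−0.68, SE 0.895, adjusted p = 0.537). The rest of the list was not tested. The part of the other cell types in the replication difference was not tested, and in bulk RNA fewer dividing cells and less RNA per cell cannot be told apart.

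Promoter sequences from RefSeq (GRCm38.p6, the mouse build before the GRCm39 of the counts) were matched by symbol for 30 of the 37 members, as windows of 250 bases before and 50 after each annotated start. The letters of the E2F site, searched as TTTCCCGC, TTTCGCGC, TTTGCCGC and TTTGGCGC on both strands, occur in at least 1 window of 14 of these 30 genes (46.7%). The share is 4.41% among the 11690 tested genes with a window and 2.6% among all 27025 genes of the promoter table. Matches of different spellings can overlap, as in Mcm6 and Mcm5, and genes with several starts have more windows to match in. CCAAT, the letters of the NF-Y box, occurs in 20 of the 30 (66.7%) against 42.5% of tested genes and 41.1% of all genes. TTTGAA, the letters of an element of mitotic promoters, occurs in 5 of the 30 (16.7%) against 14.6% and 20.2%. These are descriptions of letters, not of bound sites.

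The bases just before the start of 7 genes with E2F letters are shown with those letters in capitals, 5′ to 3′ on the gene's own strand. Mcm6, Mcm5, Pola1 and Cdc6 are members with large falls, whereas Orc1, Gins3 and Rfc3 carry such letters too and differed less.
Mcm6, GRCm38.p6 chr1:128359706-128359835, minus strand: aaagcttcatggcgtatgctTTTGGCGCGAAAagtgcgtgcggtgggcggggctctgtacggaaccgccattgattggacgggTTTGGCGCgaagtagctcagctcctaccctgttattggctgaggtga
Mcm5, GRCm38.p6 chr8:75109339-75109508, plus strand: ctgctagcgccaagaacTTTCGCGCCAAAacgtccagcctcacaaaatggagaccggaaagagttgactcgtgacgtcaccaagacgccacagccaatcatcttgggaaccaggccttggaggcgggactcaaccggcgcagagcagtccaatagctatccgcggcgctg
Pola1, GRCm38.p6 chrX:93632156-93632305, minus strand: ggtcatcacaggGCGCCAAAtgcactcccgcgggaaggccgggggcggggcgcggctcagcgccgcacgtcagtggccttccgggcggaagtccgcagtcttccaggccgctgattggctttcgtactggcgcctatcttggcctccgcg
Cdc6, GRCm38.p6 chr11:98908001-98908150, plus strand: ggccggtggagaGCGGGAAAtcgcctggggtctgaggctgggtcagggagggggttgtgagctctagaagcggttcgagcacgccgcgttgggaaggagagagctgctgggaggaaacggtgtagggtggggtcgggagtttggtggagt
Orc1, GRCm38.p6 chr4:108579374-108579453, plus strand: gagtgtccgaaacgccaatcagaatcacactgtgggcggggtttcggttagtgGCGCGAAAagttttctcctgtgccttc
Gins3, GRCm38.p6 chr8:95633479-95633558, plus strand: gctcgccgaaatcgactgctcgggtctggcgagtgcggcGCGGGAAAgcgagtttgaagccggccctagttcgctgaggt
Rfc3, GRCm38.p6 chr5:151651209-151651288, minus strand: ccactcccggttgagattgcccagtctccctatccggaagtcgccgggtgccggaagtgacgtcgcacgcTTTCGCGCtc

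Rrm2 and Pcna are shown as abundant members without E2F letters of these spellings, of which Rrm2 fell by over 2-fold and Pcna by less. Capitals mark CCAAT or its reverse complement.
Rrm2, GRCm38.p6 chr12:24708134-24708253, plus strand: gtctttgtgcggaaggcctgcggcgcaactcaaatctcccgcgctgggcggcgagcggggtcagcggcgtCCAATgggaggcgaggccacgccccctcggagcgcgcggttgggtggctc
Pcna, GRCm38.p6 chr2:132253181-132253300, minus strand: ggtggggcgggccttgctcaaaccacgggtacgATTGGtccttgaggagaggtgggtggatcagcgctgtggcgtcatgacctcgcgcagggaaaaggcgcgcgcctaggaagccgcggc

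Members with and without the E2F letters overlapped in the size of their change. The 14 with them had a median log2 fold change of −1.44 (range −2.53 to −0.21) and the 16 without them −0.77 (range −2.76 to −0.12). The difference between these sets was not tested.

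Of the 10 licensing genes, 9 were called lower, with a median log2 fold change of −1.53. All 6 subunits of the MCM ring fell, and so did the loaders Cdc6 and Cdt1, which bring the ring to origins. Mcm6 stood at 12.9, 11.4 and 12.1 CPM in CRE1 to CRE3 against 50.9, 45.6 and 49.3 CPM in WT1 to WT3 (log2 fold change −2.003, SE 0.0659, adjusted p = 1.76e-17). Mcm5, another subunit of the ring, stood at 4.74, 4.66 and 3.49 against 19.7, 20.1 and 20.1 CPM (−2.21, SE 0.105, adjusted p = 1.55e-14). In both genes the 3 knockout libraries lay far below the 3 wild-type libraries. Mcm7 fell the least of the ring, at 18.7, 21.3 and 19.2 against 35.1, 35.04 and 35.7 CPM (−0.83, SE 0.0622, adjusted p = 6.3e-11). Mcm3 (−1.57), Mcm2 (−1.49) and Mcm4 (−1.08) lay between, with adjusted p of at most 3.64e-13.

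Cdc6, the ATPase that helps load the ring, had the largest fold fall among licensing genes. Its level was 1.10, 1.19 and 1.60 CPM in CRE1 to CRE3 against 6.68, 5.83 and 6.29 CPM in WT1 to WT3 (log2 fold change −2.28, SE 0.178, adjusted p = 1.45e-10), on 32 to 48 reads against 246 to 285. Cdt1, its partner, was at 2.65, 1.84 and 1.83 against 6.33, 7.32 and 6.83 CPM (−1.70, SE 0.163, adjusted p = 4.47e-09). Both had every knockout library well below every wild-type library. Of the origin recognition complex, Orc6 fell to 68.7% of the wild type (−0.54, SE 0.0869, adjusted p = 1.1e-05). Orc1, the subunit known to be made and degraded with the cell cycle, was at 0.894, 0.989 and 1.06 against 1.27, 1.73 and 1.48 CPM. Its groups did not overlap, but it had only 26 to 35 reads against 54 to 73 and was not called (−0.60, SE 0.282, adjusted p = 0.0695). Orc1 shares 376 exon bases with Gm12743 on the other strand, whose own reads numbered 24 to 27 against 28 to 69. Orc6 shares 171 with Vps35, also on the other strand, whose own reads numbered 4725 to 7083 against 9230 to 9666. The part of these neighbours' reads in the Orc1 and Orc6 values was not tested. The core subunits Orc2, Orc3, Orc4 and Orc5, which are no members and were singled out after their values were seen, had log2 fold changes of 0.14, 0.16, 0.29 and 0.23, and Orc3 to Orc5 were called higher (adjusted p = 0.0246, 0.000491 and 0.0167). None of these 3 was called with total counts alone (adjusted p = 0.501, 0.285 and 0.818), where Orc2 and Orc3 turned to −0.0663 and −0.0486. The calls of Orc3 and Orc5 were also lost without WT2 or WT3, that of Orc3 without CRE2 and that of Orc5 without CRE1 (adjusted p of 0.0511 to 0.121).

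Of the 8 genes of the fork, which activate the helicase or coat single-stranded DNA, 6 were called lower (median −0.76). Mcm10, an activator of the helicase, had the largest fold fall of the 37 members. It stood at 1.10, 0.820 and 0.698 CPM in CRE1 to CRE3 against 5.58, 6.75 and 5.37 CPM in WT1 to WT3 (log2 fold change −2.76, SE 0.203, adjusted p = 4.76e-11), on 21 to 32 reads against 232 to 285. Cdc45, the helicase cofactor, was at 3.27, 3.67 and 3.56 against 5.96, 5.99 and 6.69 CPM (−0.83, SE 0.137, adjusted p = 1.71e-05). The single-strand binding subunits Rpa1 (−0.62, adjusted p = 2.12e-11) and Rpa2 (−0.72, adjusted p = 4.47e-07) fell to 65.1% and 60.8% of the wild type. In each of these 4 genes every knockout library lay below every wild-type library.

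The GINS complex, a part of the active helicase with 4 subunits, held both large and small changes. Gins1 was at 1.13, 0.678 and 0.964 against 2.60, 2.98 and 1.99 CPM (log2 fold change −1.46, SE 0.267, adjusted p = 5.6e-05), on 24 to 33 reads against 86 to 126. Gins2 was at 4.88, 5.51 and 5.02 against 9.73, 9.002 and 8.40 CPM (−0.81, SE 0.117, adjusted p = 2.42e-06), and it shares 2758 exon bases with Gse1 on the other strand, whose own reads numbered 416 to 491 against 886 to 984. The part of Gse1 reads in the Gins2 value was not tested. Gins3 (−0.27, SE 0.133, adjusted p = 0.0835) and Gins4 (−0.12, SE 0.0724, adjusted p = 0.173) were not called. Gins4 stood at 18.4, 17.2 and 17.2 against 18.5, 18.5 and 20.2 CPM, with all knockout libraries below the wild type but the closest values of both groups nearly equal.

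**Figure D2:**
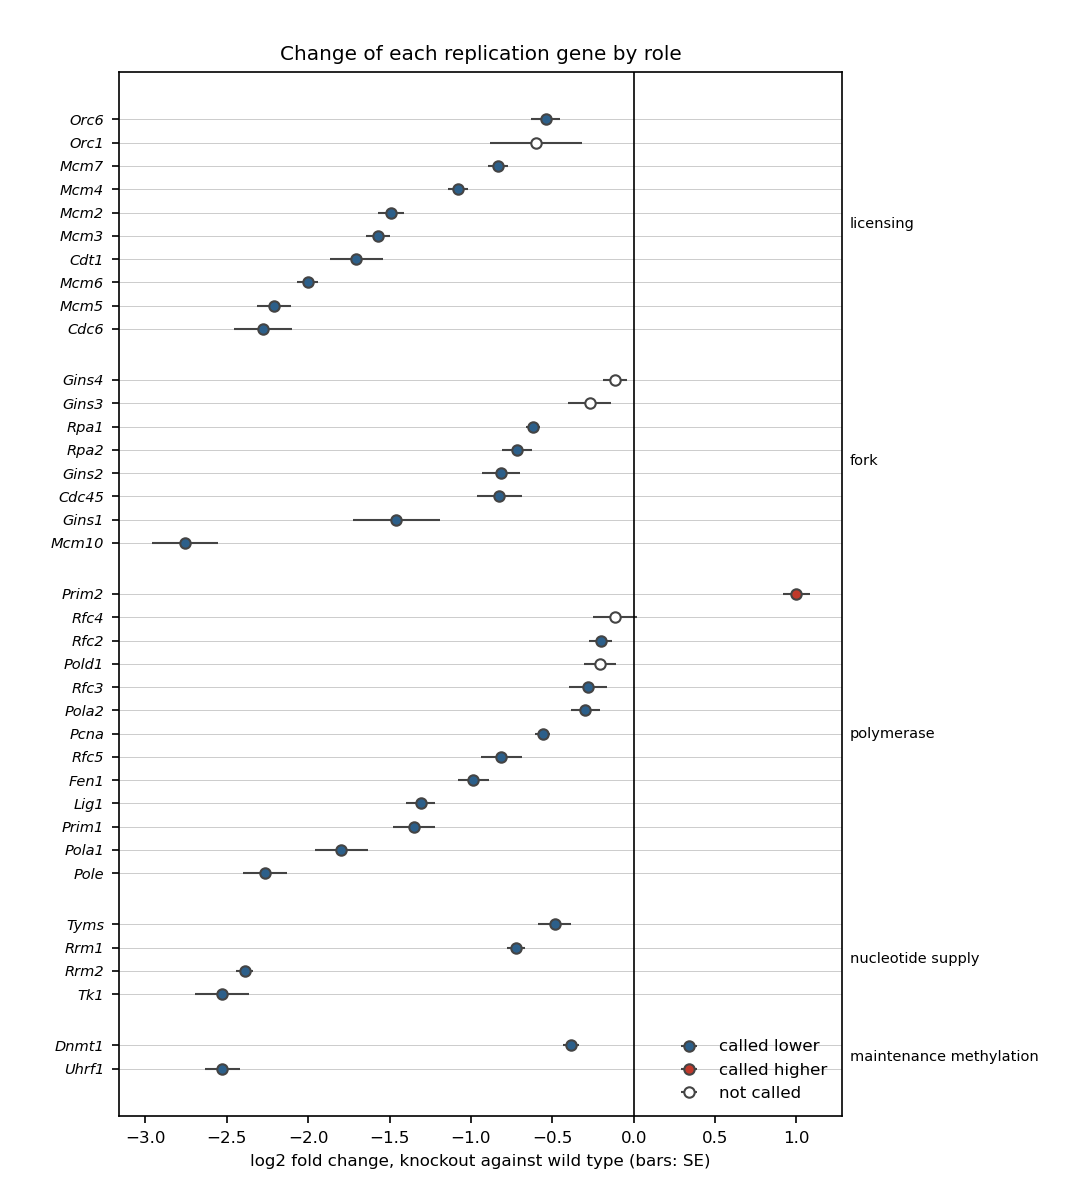
Log2 fold change of each replication gene, knockout against wild type, with its standard error as bars, grouped by role (blue: called lower, red: called higher, open: not called). Values run from −2.76 for Mcm10 to 1.00 for Prim2.

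Among the 13 genes of primase, polymerases, clamp, clamp loader and Okazaki fragment joining, 10 were called lower and Prim2 was called higher (median −0.56). Opposite changes lay inside the polymerase alpha-primase complex, which starts each new strand with a short RNA-DNA primer. Its catalytic polymerase subunit Pola1 stood at 2.89, 4.92 and 5.39 CPM in CRE1 to CRE3 against 14.4, 15.7 and 16.1 CPM in WT1 to WT3 (log2 fold change −1.80, SE 0.163, adjusted p = 9.04e-07). Prim1, the primase subunit that makes the RNA, stood at 3.09, 3.87 and 3.49 against 8.63, 8.95 and 9.19 CPM (−1.35, SE 0.126, adjusted p = 3.14e-09). Both fell without overlap between the groups. The large primase subunit Prim2 went the other way, at 24.4, 28.3 and 23.9 against 13.01, 13.7 and 11.8 CPM (0.9993, SE 0.0812, adjusted p = 2.83e-10). All 3 knockout libraries lay above the 3 wild-type libraries for Prim2, and it was called higher under each of 18 other settings, at 0.63 to 1.06. The accessory subunit Pola2 fell to 81.4% of the wild type (−0.30, SE 0.0904, adjusted p = 0.00682).

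The catalytic subunits of polymerases epsilon and delta, which copy the leading and lagging strands, had different values. Pole, of polymerase epsilon, was at 2.72, 2.09 and 2.03 against 10.6, 11.6 and 10.6 CPM (log2 fold change −2.27, SE 0.135, adjusted p = 1.13e-12). Pold1, of polymerase delta, was at 10.5, 11.9 and 9.41 against 12.8, 12.4 and 11.7 CPM, with overlapping groups, and was not called (−0.21, SE 0.0975, adjusted p = 0.0697). Without CRE2 Pold1 was called lower (−0.29, adjusted p = 0.0241). Of the other subunits of polymerase epsilon, which are no members, the histone-fold subunits Pole3 (0.36, SE 0.04997, adjusted p = 1.53e-06) and Pole4 (0.37, SE 0.0743, adjusted p = 0.000197) were called higher. The rise of Pole4 was not called with total counts alone (adjusted p = 0.0719). Pole2, singled out after its value was seen, was called lower (−0.43, SE 0.164, adjusted p = 0.0264), but not without CRE2 (adjusted p = 0.22) or without WT1, WT2 or WT3 in turn (adjusted p of 0.0559 to 0.0659).

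Pcna, the sliding clamp and the member with the highest FPKM, was at 65.0, 71.2 and 67.6 against 98.6, 98.4 and 104 CPM (log2 fold change −0.56, SE 0.0435, adjusted p = 1.29e-10). Its groups did not overlap, and it kept 67.8% of the wild-type level. Fen1, a flap nuclease that trims Okazaki fragments, fell to 50.5% (−0.98, SE 0.0928, adjusted p = 3.55e-09), and the ligase Lig1, which joins them, to 40.4% of the wild type (−1.31, SE 0.0883, adjusted p = 1.03e-11). Of the clamp loader, Rfc5 was at 4.06, 4.46 and 3.92 against 7.57, 7.25 and 7.10 CPM (−0.81, SE 0.125, adjusted p = 6.21e-06). Rfc2 (−0.20, adjusted p = 0.0149) and Rfc3 (−0.28, adjusted p = 0.0429) were called lower by small amounts, and Rfc4 was not called (−0.12, SE 0.136, adjusted p = 0.476). The call of Rfc2 was lost without CRE3 (adjusted p = 0.09) or WT1 (0.0599), and that of Rfc3 without CRE2, CRE3, WT1, WT2 or WT3 in turn (adjusted p of 0.0648 to 0.287). Rfc2 also shares 952 exon bases with Lat2 on the other strand, whose own reads numbered 17 to 46 against 567 to 685. Rfc4 shares 194 exon bases with Eif4a2 and Rfc5 shares 499 with Wsb2, also on the other strand. Fen1 shares 1909 exon bases with Gm10143, which the count table does not hold, and 130 with Tmem258, both on the other strand. The part of these neighbours' reads in the Fen1, Rfc2, Rfc4 and Rfc5 values was not tested.

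All 4 genes of nucleotide supply were called lower. Rrm2, the subunit of ribonucleotide reductase that carries the radical and is made in S phase, stood at 16.6, 15.6 and 15.7 CPM in CRE1 to CRE3 against 84.4, 84.1 and 82.5 CPM in WT1 to WT3 (log2 fold change −2.39, SE 0.0517, adjusted p = 6.78e-21). Rrm1, the catalytic subunit, whose protein persists through the cell cycle, stood at 40.7, 44.4 and 48.9 against 72.5, 71.9 and 76.6 CPM (−0.72, SE 0.0563, adjusted p = 6.46e-10). Neither gene overlapped between the groups, and the wild type was 5.24-fold higher in Rrm2 and 1.65-fold higher in Rrm1. Rrm2b, the p53-inducible partner that serves repair and mitochondrial DNA and is no member, was at 22.8, 28.3 and 27.2 against 29.7, 28.9 and 29.3 CPM (−0.17, SE 0.0696, adjusted p = 0.0438). Its call was lost under 7 of 18 other settings, among them without CRE1 (−0.07, adjusted p = 0.320) and without WT1, WT2 or WT3 in turn (adjusted p of 0.0693 to 0.118). Tk1, the thymidine kinase of S phase, was at 1.72, 2.15 and 1.13 against 10.7, 9.43 and 9.09 CPM (−2.53, SE 0.168, adjusted p = 1.46e-11). Tyms, which makes thymidylate anew, fell to 71.4% of the wild type (−0.48, SE 0.102, adjusted p = 0.000278).

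Both genes of the pair that copies DNA methylation behind the fork fell. Uhrf1, which reads the half-methylated DNA left by the fork, was at 3.51, 3.02 and 2.89 against 18.6, 17.96 and 17.7 CPM (log2 fold change −2.53, SE 0.106, adjusted p = 1.73e-15). Dnmt1, the methyltransferase that Uhrf1 recruits, was at 52.2, 48.5 and 47.6 against 65.7, 66.2 and 61.6 CPM (−0.38, SE 0.0494, adjusted p = 4.77e-07). The knockout kept 17.4% of the wild-type level of Uhrf1 and 76.6% of that of Dnmt1, without overlap of the groups in either gene.

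Levels per length, from the deposited FPKM, compare the transcripts of subunits of shared complexes. They are RNA levels and do not give the protein make-up of a complex. FPKM carries no TMM scaling, so ratios and shares within a complex are given. The MCM subunits of 1 library lay within 2.08-fold to 2.13-fold of each other in FPKM in the wild type and within 4.72-fold to 6.57-fold in the knockout. Mcm7 made up 21.5% ± 0.346 of the summed MCM FPKM in the wild type and 31.4% ± 1.78 in the knockout, while Mcm5 went from 10.2% ± 0.166 to 5.7% ± 0.778. The 4 subunits of polymerase alpha-primase lay within 2.08-fold to 2.25-fold in the wild type and 5.61-fold to 10.7-fold in the knockout. There Prim2 went from 20.2% ± 1.39 to 51.7% ± 2.51 of the summed FPKM, Pola1 from 19.2% ± 0.923 to 6.98% ± 1.87 and Prim1 from 40.5% ± 1.15 to 20.3% ± 0.674. Gins4, the subunit of GINS with the highest FPKM, went from 52.1% ± 3.23 to 62.7% ± 0.94 of the summed GINS FPKM. For the clamp loader subunits Rfc2 to Rfc4 the shares overlapped between the groups, and Rfc5 went from 14.9% ± 0.611 to 10.3% ± 0.781. Rrm1 had 0.481 ± 0.0228 times the FPKM of Rrm2 in the wild type and 1.53 ± 0.183 times in the knockout, so the order of these transcripts was turned. Pold1 had 1.73 ± 0.105 times the FPKM of Pole in the wild type and 7.26 ± 1.39 times in the knockout. These ratios and shares were chosen with the fold changes in view and carry no test.

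**Figure D3:**
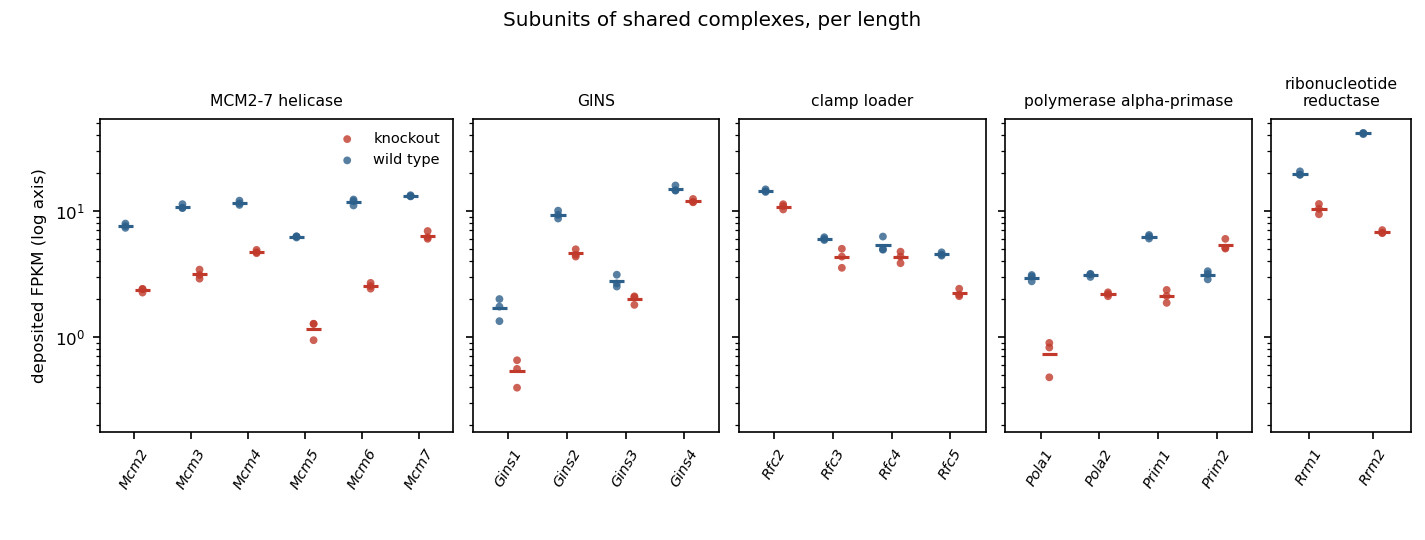
Deposited FPKM of the subunits of shared complexes on a log axis, with 1 point per library and the group mean as a bar (red: knockout, blue: wild type). The MCM subunits of a library lie within 2.13-fold in the wild type and spread over 4.72-fold or more in the knockout, Prim2 is higher in the knockout, and Rrm2 lies below Rrm1 there.

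Across the 37 members, log2 wild-type FPKM and log2 fold change correlated at Pearson r = 0.106 and Spearman rho = 0.135. This is a description over genes that share the same libraries.

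Of 41 other genes of replication, listed without the members, 21 were called lower, 8 higher and 12 not called, with a median log2 fold change of −0.24. Over all tested genes 32.1% were called lower and 30.6% higher, so rises were no more frequent in this list than in the background. Clspn, an adaptor of the replication checkpoint, stood at 2.79 ± 0.419 against 11.4 ± 1.59 CPM (−2.02, SE 0.140, adjusted p = 1.72e-11). The histone chaperone Asf1b stood at 2.03 ± 0.248 against 7.43 ± 0.580 CPM (−1.87, SE 0.151, adjusted p = 2.57e-10). Ssrp1, a subunit of the FACT histone chaperone that also serves transcription, was called higher (0.38, SE 0.0331, adjusted p = 8.82e-10), as was the fork-protection gene Tipin (0.47, SE 0.0608, adjusted p = 4.88e-07). The number called higher was 3 with total counts alone and 5 without WT2.

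Of 26 further enzymes of nucleotide supply, 17 were called lower and 4 higher (median −0.23), beside the same 32.1% and 30.6% of all tested genes. Ctps, CTP synthase, rose and stood at 218 ± 6.56 against 55.6 ± 3.26 CPM (log2 fold change 1.97, SE 0.0423, adjusted p = 1.12e-20). Impdh1 (0.58) and Gmps (0.37), which make guanine nucleotides, were also called higher. So was Dhodh (0.57), the mitochondrial enzyme of pyrimidine synthesis, with adjusted p of at most 0.000167 for each. The call of Gmps was lost on log2(FPKM + 1) without a filter (adjusted p = 0.0566, limma). Impdh2, the relative of Impdh1, was called lower at 44.6 ± 0.877 against 56.0 ± 3.36 CPM (−0.33, SE 0.0512, adjusted p = 7.04e-06). It was singled out after its value was seen. Samhd1, which breaks down dNTPs, fell (−0.62, SE 0.0373, adjusted p = 1.24e-12), as did Adss, an enzyme of AMP synthesis (−0.59, SE 0.0476, adjusted p = 2.47e-10). The folate enzyme Shmt1, singled out after its value was seen, was lower as well (−2.23, SE 0.243, adjusted p = 3.63e-08).

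Of 32 regulators of S-phase entry, 12 were called lower and 12 higher, with a median log2 fold change of 0.02. These counts are near the shares over all tested genes (32.1% lower, 30.6% higher, median −0.02), so the split says nothing particular about the regulators. Of the E2F family, the repressors E2f8 (−4.17, SE 0.235, adjusted p = 4.03e-13) and E2f7 (−2.31, SE 0.261, adjusted p = 6.74e-08) and the activator E2f2 (−1.96, SE 0.228, adjusted p = 1.08e-07) fell. Their knockout reads were few, at 7 to 11 against 225 to 233 for E2f8 and 13 to 26 against 116 to 149 for E2f7. E2f2 had 28 to 40 against 123 to 202, so the sizes of these falls are imprecise. E2f1, an activator singled out after its value was seen, was higher at 49.6 ± 2.17 against 30.97 ± 1.91 CPM (0.68, SE 0.0560, adjusted p = 3.69e-10). E2f4 (0.51, SE 0.0594, adjusted p = 1.18e-07) and E2f3 (0.19, SE 0.0727, adjusted p = 0.0319), singled out likewise, were called higher too. E2f4 stood at 34.7 ± 0.809 against 24.4 ± 1.39 CPM. E2f5 and E2f6 were not called. Ccnd1, a cyclin of G1, stood at 225 ± 9.70 against 451 ± 5.76 CPM (−1.005, SE 0.0314, adjusted p = 6.56e-18) and its relative Ccnd3 at 191 ± 1.13 against 93.1 ± 2.37 CPM (1.04, SE 0.0347, adjusted p = 2.27e-17), so they moved in opposite directions. The cell-cycle inhibitor Cdkn1a rose, at 826 ± 13.3 against 462 ± 7.36 CPM (0.84, SE 0.0257, adjusted p = 4.68e-18), and the inhibitor Cdkn1c fell (−1.34, SE 0.0602, adjusted p = 1.02e-14).

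All 35 genes listed for mitosis were called lower by 2-fold or more, against 12.0% of tested genes, with a median log2 fold change of −2.69. Prc1 (−3.09), of the spindle midzone, the cyclin Ccna2 (−3.33) and the cytokinesis motor Kif20a (−2.33) had the smallest p of the list, with adjusted p of at most 3.49e-17. Whether the lists differ from the members was not tested.

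**Figure D4:**
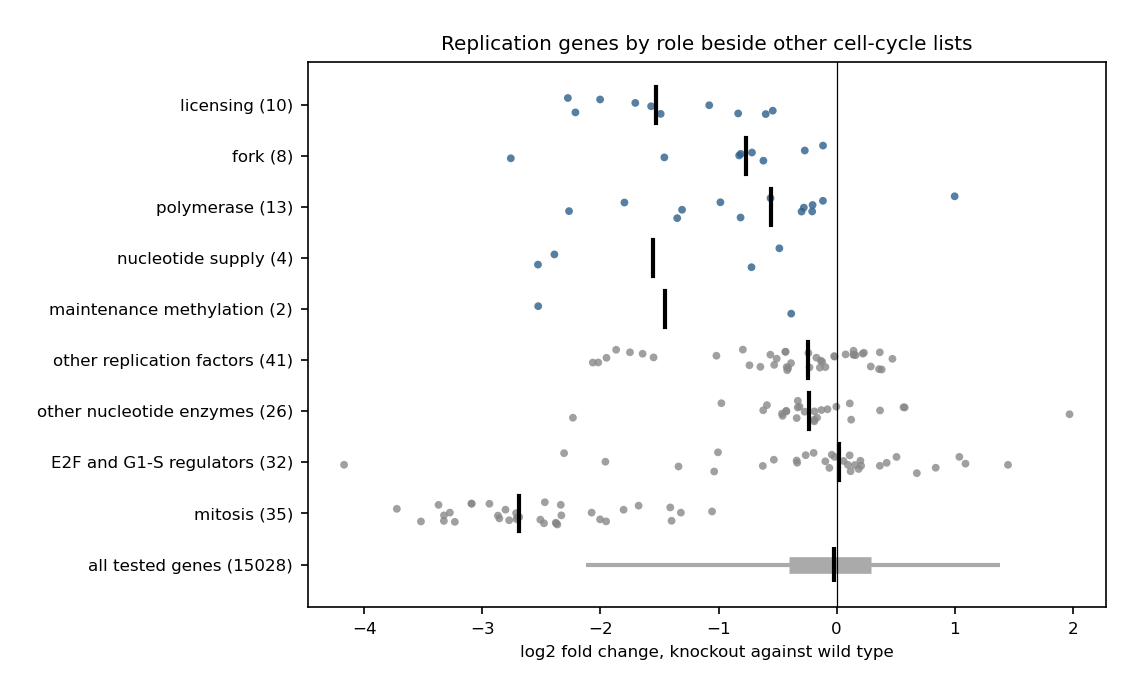
Log2 fold changes, knockout against wild type, of the replication genes by role and of 4 other cell-cycle lists, 1 point per gene with the median as a line, and all 15028 tested genes as a thin bar (5th to 95th percentile) and a thick bar (25th to 75th). Medians of the roles run from −1.56 to −0.56, mitosis lies at −2.69 and the regulators of S-phase entry at 0.02.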

How the data were processed

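Per the labels' protocols, TRIzol RNA was turned into libraries with the VAHTS Universal V6 kit. Fastp, HISAT2, HTSeq and GRCm39 are listed in the submitters' processing notes, with versions, strand, annotation and filters not given in the sources used here. Whole-number read counts and FPKM for 23867 gene symbols, in 6 columns each, were deposited by the authors. For 13375 genes with at least 10 reads in every library, deposited FPKM equals count over column total and 1 length per gene, to within 0.1%. Names of the CRE columns give the group alone, with no match to single samples.

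Counts were fitted with edgeR 4.0.16 in R 4.3.3 (group alone, TMM, filterByExpr with a minimum count of 10, robust quasi-likelihood test, two-sided). The filter kept 15028 genes and all 37 members. P-values were adjusted over all tested genes, and SE is the size of the log2 fold change over the square root of F. The test was tested on simulated data for knockout against wild type (14880 genes), with 50 genes changed at each fold. There it recovered 72% of genes changed 1.5-fold and 90% of those changed 2-fold, with 4.84% false calls. In the data themselves 62.7% of tested genes were called. The simulated rates may therefore not hold for these data. Chi-square per degree of freedom between libraries of a group was 3.19 to 8.09, and each library was counted on its own. Such values cannot tell separate animals from separate preparations of the same cells or RNA. The coefficient of variation that edgeR fitted between libraries, beyond counting noise, was 4.88%.

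Members and lists were chosen with earlier results of these data known. Named beside the members are the 3 genes with the smallest p of each other list, up to 4 called against its median, Rrm2b and the 2 most abundant markers of each cell type. Genes singled out after their values were seen are marked. In GENCODE M21, 11 members share exon bases with another gene of the count table, so their separate counts are uncertain without strand. These members are Cdc45, Fen1, Gins2, Lig1, Mcm7, Orc1, Orc6, Rfc2, Rfc4, Rfc5 and Tk1. Alternatives were DESeq2 1.42.0, limma-voom (limma 3.58.1), other scalings and filters, a 1.2-fold threshold, each library left out, limma on log2(FPKM + 1) and log2(FPKM + 0.1), and a replicate block.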

Additional observations from a re-analysis of the deposited data

How the results depend on the processing

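Over 18 other settings 28 to 36 members were called lower, and 1 was called higher in each. Upper-quartile factors gave 35 lower and total counts alone gave 36, while 39.7% and 50.5% of all tested genes were then called lower. Rises made up 48.9% of all calls with TMM, 38.1% with upper-quartile factors, 26.8% with total counts alone and 28.1% on log2(FPKM + 1). Total counts alone moved the median of all genes by −0.209 and put the median of the members at −1.03. That median was −0.996 on log2(FPKM + 0.1), where 33 members passed the filter. Against a 1.2-fold change 5860 genes were called, and 8 of the other nucleotide enzymes were lower. Rises among the other replication factors numbered 5 with upper-quartile factors, 3 with total counts alone, 3 against a 1.2-fold change, 3 on each FPKM fit and 5 to 8 with a library left out. Rises among the regulators of S-phase entry numbered 6 on log2(FPKM + 1) without a filter. The cause was not tested.

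Some small changes turned direction. With a library left out, Rfc4 ran from −0.19 to 0.00467, the latter without WT3, and Tek from −0.314 to 0.115, the latter without CRE2. Orc2 was at −0.0663 and Orc3 at −0.0486 with total counts alone, at −0.0588 and −0.0484 on log2(FPKM + 1) with or without the filter, and at −0.0665 and −0.0545 on log2(FPKM + 0.1). Orc1, Gins3, Gins4, Pold1 and Rfc4 were called lower with total counts alone. The calls of Rfc3, Rfc2 and Pola2 were lost in 8, 3 and 1 settings. A replicate block on the number ending each column name gave 9142 calls against 9427, with 31 members lower and 1 higher. Deviations of same-numbered libraries correlated at −0.0857, 0.0553 and −0.0954, and those of different-numbered libraries at −0.0748 to 0.149. With 3 libraries per group these values cannot settle whether libraries were paired. Orc1, Cdc6, Mcm10 and Gins1 had fewer than 50 reads in each knockout library, which limits their precision.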
